A study of Mus musculus with 8 samples.

Results

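The genes described here belong to the *Aldh1a* family or the retinoic acid pathway. They are the *Aldh1a* enzymes *Aldh1a1*, *Aldh1a2*, *Aldh1a3* and *Aldh1a7*, the cellular retinoic acid binding proteins *Crabp1* and *Crabp2*, the receptors *Rarb* and *Rarg*, and the retinol uptake receptor *Stra6*. They were chosen by gene symbol with results of these data in view, so their own values are given as a description and carry no test. Of the 9 genes named, 8 were found among the 18605 genes of the deposited gene table, and *Aldh1a2* is not analysed here. Enough reads for the fit across all genes were present for 7 of the 8, and *Crabp1* was too low.

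RNA came from C3H10T1/2 cells, a mesenchymal line from C3H mouse embryos, cultured in DMEM with 10% FBS. Every group consisted of 2 libraries. Cells with a non-target control were taken before osteogenic induction (NC) and after 7 days of it (NC-7d), and cells with a knockdown of *Nap1l2*, a nucleosome assembly protein gene, were taken before (KD-Nap1l2) and after the same 7 days (KD-Nap1l2-7d). The study used lentiviral shRNAs for the knockdown and an osteogenic medium with dexamethasone, ascorbic acid and β-glycerol phosphate. Which shRNA was used for these libraries, whether the cells were a single clone, and whether replicates were separate cultures are not given in the sources used here, so the spread between replicates may be technical. The comparisons ask how these genes differed between control and knockdown cells, and how they moved with induction in each. No library was taken after 7 days without the osteogenic medium. Induction below therefore stands for the medium and the time in culture together, which cannot be told apart.

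Library totals ran from 17420284 to 19427359 estimated counts. Replicates correlated at r = 0.962 in KD-Nap1l2, 0.967 in NC-7d, 0.984 in NC and 0.990 in KD-Nap1l2-7d across genes, and KD-Nap1l2 replicate 2 lay farthest from its partner on the second principal component. The NC-7d replicates also lay apart, at -7.693 for replicate 1 and 31.78 for replicate 2 on the third component. Several values below are therefore also given with 1 library left out. *Nap1l2* itself had 3 and 3 estimated counts in the NC libraries, 2 and 7 in KD-Nap1l2, 15 and 5 in NC-7d, and 7 and 13 in KD-Nap1l2-7d. At so few counts the targeted gene does not check the labels, and KD-Nap1l2 below means the libraries labelled so. Of the 15 mesenchymal stromal marker genes, *Nt5e* alone was under 10 normalised counts in every library. Of the 8 osteoblast marker genes, *Sp7* and *Ibsp* were under 10 normalised counts in all 8 libraries. *Alpl* and *Bglap* stayed at or below 22.97, and *Dmp1* and *Phex* lay between 39.31 and 556.9. *Runx2* was at or above 976.4 and *Spp1* at or above 28050 in every library.

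Retinoic acid is made from vitamin A in steps. Retinol enters the cell and is oxidised to retinal by alcohol and retinol dehydrogenases. Retinaldehyde dehydrogenases such as *Aldh1a1* then oxidise retinal to retinoic acid. Binding proteins carry retinoic acid in the cytosol, *Cyp26* enzymes degrade it, and nuclear receptors bound to DNA as dimers of RAR and RXR respond to it. In skeletal development, retinoic acid signalling is known to act on cartilage and bone formation.

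*Aldh1a1* (gene ID 11668) and *Aldh1a7* (gene ID 26358) carry most of what follows and are near copies of each other, so their sequences are shown first. Both lie on chromosome 19 of GRCm38.p6, *Aldh1a1* at 20492583 to 20643463 and *Aldh1a7* at 20692953 to 20727556. Their coding sequences are 1503 bases each in GENCODE transcripts of this build, and 1377 of these bases are identical (91.6%). The longest run without a difference is 100 bases. Of all 50-base windows of the *Aldh1a1* transcript, 7.53% occur unchanged in that of *Aldh1a7*, against 0.0512% of 100-base windows. Short reads from the shared stretches fit both genes, and the division of such reads between them is an estimate. The first 120 coding bases show the spacing of the differences, with the 10 differing bases in capitals.

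Aldh1a1: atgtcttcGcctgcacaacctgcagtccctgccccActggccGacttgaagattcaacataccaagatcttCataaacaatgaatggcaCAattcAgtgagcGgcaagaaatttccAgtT

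Aldh1a7: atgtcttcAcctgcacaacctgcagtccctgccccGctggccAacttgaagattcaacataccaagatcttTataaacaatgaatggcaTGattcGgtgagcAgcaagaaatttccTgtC

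The regions before the start sites are also related. The 250 bases upstream of the *Aldh1a1* start (chr19:20601718-20601967, plus strand) and of the *Aldh1a7* start (chr19:20727557-20727806, minus strand) align with 66.0% identity in RefSeq sequence of GRCm38.p6. The *Aldh1a1* window is the downstream of 2 starts listed for the gene and lies within the annotated gene. Both windows hold the same 65 bases, in capitals, from 94 to 30 bases before the start.

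Aldh1a1: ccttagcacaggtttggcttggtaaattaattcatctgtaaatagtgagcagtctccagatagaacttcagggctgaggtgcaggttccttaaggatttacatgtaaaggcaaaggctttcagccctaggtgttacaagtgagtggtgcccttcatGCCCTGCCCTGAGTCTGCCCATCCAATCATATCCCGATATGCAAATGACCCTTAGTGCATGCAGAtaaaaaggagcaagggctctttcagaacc

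Aldh1a7: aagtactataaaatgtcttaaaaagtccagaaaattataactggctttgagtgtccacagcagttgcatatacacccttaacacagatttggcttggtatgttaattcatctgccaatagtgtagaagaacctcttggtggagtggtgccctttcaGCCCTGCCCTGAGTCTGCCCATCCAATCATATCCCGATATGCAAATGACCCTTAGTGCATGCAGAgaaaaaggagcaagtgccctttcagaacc

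Retinoic acid receptors are known to bind pairs of hexamers, and 3 spacings were searched on both strands of windows from 250 bases before to 50 bases after the start sites. The hexamer was AGGTCA or AGTTCA, with GGGTCA or GGTTCA also allowed, placed as direct repeats 1, 2 or 5 bases apart (DR1, DR2 and DR5), and the hexamers of a repeat could differ. Of the 8 genes, 6 had such a window in the RefSeq table (11 windows in all), and *Aldh1a3* and *Crabp2* had none. A DR5 was found in *Rarb* and none of the 3 spacings in the other windows of the members. DR5 occurred in 32 of 32851 windows (0.0974%), DR1 in 73 (0.222%) and DR2 in 88 (0.268%). Among the other retinoid genes, *Cyp26a1* held a DR5 and *Bco1* a DR1. The stretches of *Rarb* (chr14:16575493-16575549, minus strand) and *Cyp26a1* (chr19:37697756-37697807, plus strand) are shown with the repeat in capitals, since both genes are textbook targets of retinoic acid. In *Rarb* the match runs from 53 to 37 bases before the start and in *Cyp26a1* from 32 to 16, where it reads on the opposite strand. A match is a description of the letters and not a bound site, and no match says only that these letters are not in the window.

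Rarb: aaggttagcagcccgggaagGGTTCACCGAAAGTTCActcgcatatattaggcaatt

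Cyp26a1: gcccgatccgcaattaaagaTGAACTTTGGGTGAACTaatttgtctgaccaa

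Levels of different genes were compared by FPKM, which is scaled to gene length. Before induction, *Rarg* was the highest of the 8 genes, with a mean of 88.1 FPKM in NC and 108 FPKM in KD-Nap1l2, and every other member was at or below 3.45 FPKM in all 4 libraries. In NC, *Aldh1a1* followed at 2.52 FPKM and *Crabp2* at 1.61 FPKM, with values that overlapped. *Aldh1a7* came next at 1.08 FPKM. *Rarb*, *Aldh1a3*, *Stra6* and *Crabp1* lay between 0.2 and 0.325 FPKM, and neighbours among these 4 overlapped. In KD-Nap1l2, *Crabp2* at 2.07 FPKM and *Aldh1a1* at 1.57 FPKM exchanged places but overlapped.

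After 7 days of induction, *Aldh1a1* and *Aldh1a7* had passed *Rarg*. In NC-7d, *Aldh1a7* had a mean of 152 FPKM and *Aldh1a1* of 149 FPKM, and their values overlapped, while *Rarg* was at 85.0 FPKM and below both. In KD-Nap1l2-7d, *Aldh1a1* was at 158 FPKM, above *Aldh1a7* at 90.6 FPKM, whose values overlapped those of *Rarg* at 82.3 FPKM. *Crabp2* followed at 2.05 FPKM and 2.46 FPKM, and the remaining members were at or below 0.195 FPKM on average. The plot of counts by library shows these levels on a count scale.

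**Figure D1:**
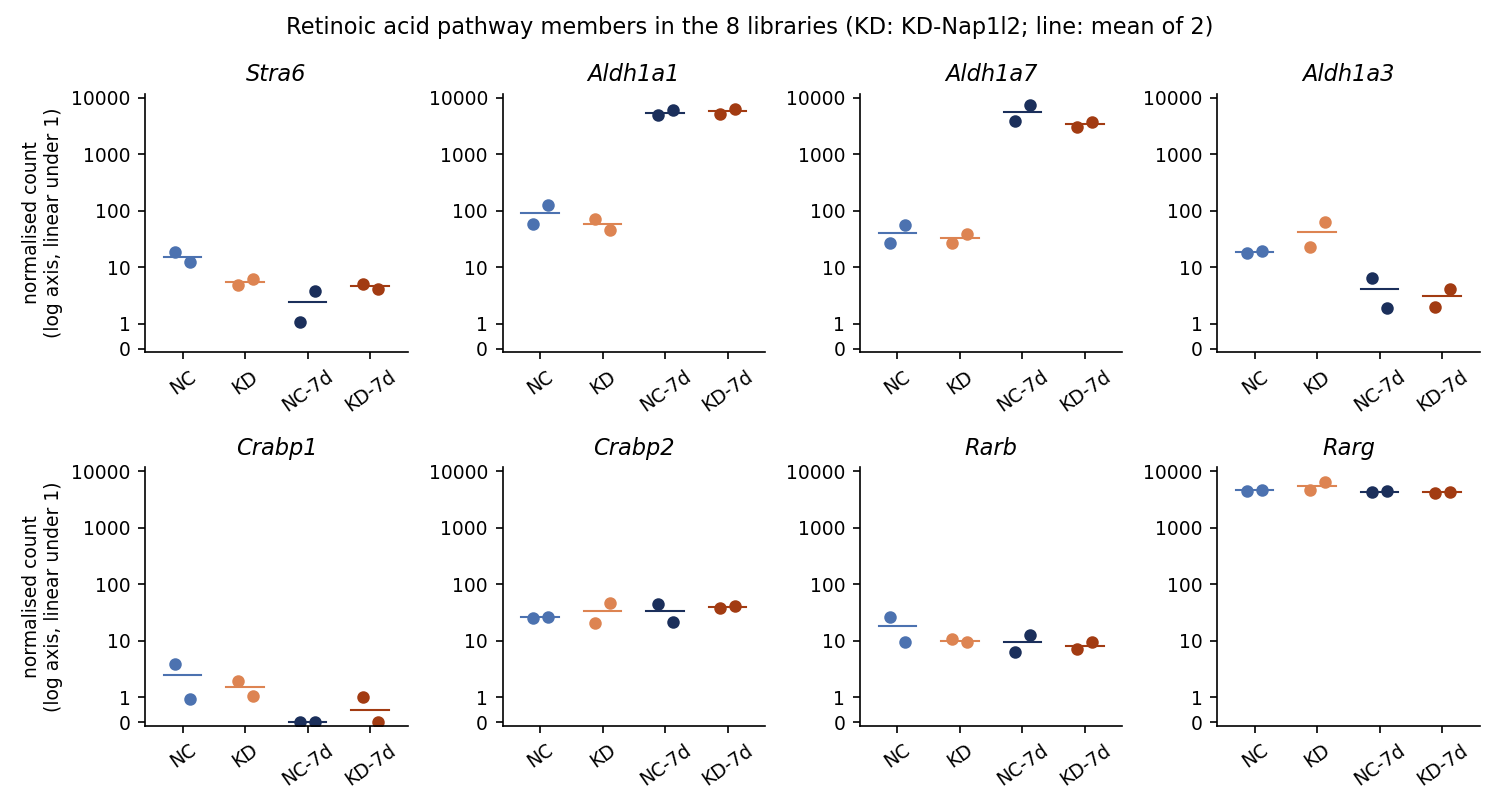
Normalised counts (y, log axis that is linear under 1) of the 8 genes in the 4 groups (x); each point is 1 library and each line the mean of 2. *Aldh1a1* and *Aldh1a7* lie below 130 normalised counts in the 4 libraries before induction and at or above 3096 in the 4 induced libraries, while *Rarg* stays at or above 4161 in all 8.

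*Aldh1a1* encodes a cytosolic retinaldehyde dehydrogenase that makes retinoic acid. Its NC libraries held 59.1 and 127.1 normalised counts and its KD-Nap1l2 libraries 70.46 and 44.75, where a normalised count is the count scaled to a common library size. In the induced libraries it had 4919 and 6100 normalised counts in NC-7d and 5237 and 6492 in KD-Nap1l2-7d. All 4 induced libraries were therefore far above all 4 libraries taken before induction, and the control and knockdown libraries overlapped at both times. The ratio of means was 59.2 in control cells, with a log2 fold change of 5.88 ± 0.386 (SE, 2 libraries per group), and 102 in KD-Nap1l2 cells, with a log2 fold change of 6.66 ± 0.405. The control value was 6.54 with NC replicate 2 left out and 5.44 with NC replicate 1 left out. Ranked by log2 fold change among the 13470 genes fitted, *Aldh1a1* was number 18 from the top in control cells and number 14 in KD-Nap1l2 cells. These are values of whole cultures, in which a larger number of expressing cells and more RNA per cell cannot be told apart. Between KD-Nap1l2 and NC the log2 fold change was -0.69 ± 0.376, and -0.03 without NC replicate 2. Between KD-Nap1l2-7d and NC-7d it was 0.09 ± 0.304.

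*Aldh1a7* encodes a dehydrogenase closely related to *Aldh1a1*, and whether it oxidises retinal was not tested here. It had 26.59 and 55.15 normalised counts in the NC libraries and 27.40 and 38.51 in KD-Nap1l2. In the induced libraries it had 3844 and 7447 in NC-7d and 3096 and 3733 in KD-Nap1l2-7d. Induction again separated the libraries without overlap, and both KD-Nap1l2-7d libraries were below both NC-7d libraries, whose replicates lay far apart. The ratio of induced to uninduced means was 138 in control cells, with a log2 fold change of 7.10 ± 0.461 (SE) and rank 5 of 13470, and 104 in KD-Nap1l2 cells, with 6.69 ± 0.462 and rank 13. The control value was 7.72 with NC replicate 2 left out. After induction the mean was 3414 in KD-Nap1l2-7d against 5645 in NC-7d, and the log2 fold change was -0.73 ± 0.338, which moved to -0.17 without NC-7d replicate 2 and to -1.13 without NC-7d replicate 1. Before induction the log2 fold change between KD-Nap1l2 and NC was -0.32 ± 0.486, and 0.30 without NC replicate 2.

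Since reads from the shared stretches can be assigned to either gene, the estimated counts were also summed. In NC the sum was 87 and 195 estimated counts, 100 and 80 in KD-Nap1l2, 8186 and 14129 in NC-7d, and 8312 and 9792 in KD-Nap1l2-7d. Fitted as 1 gene, the sum had a log2 fold change of 6.38 ± 0.413 with induction in control cells and 6.68 ± 0.422 in KD-Nap1l2 cells, and both values lay between those of the separate genes. The knockdown differences were -0.57 ± 0.369 before induction and -0.27 ± 0.322 after it, smaller in size after induction than that of *Aldh1a7* alone. *Aldh1a7* held 30.5% and 30.3% of the sum in NC, 27.6% and 46.8% in KD-Nap1l2, 43.9% and 55% in NC-7d, and 37.2% and 36.5% in KD-Nap1l2-7d. Its share was thus below 50% in 7 of the 8 libraries and above it in NC-7d replicate 2, the library that also had the largest sum.

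**Figure D2:**
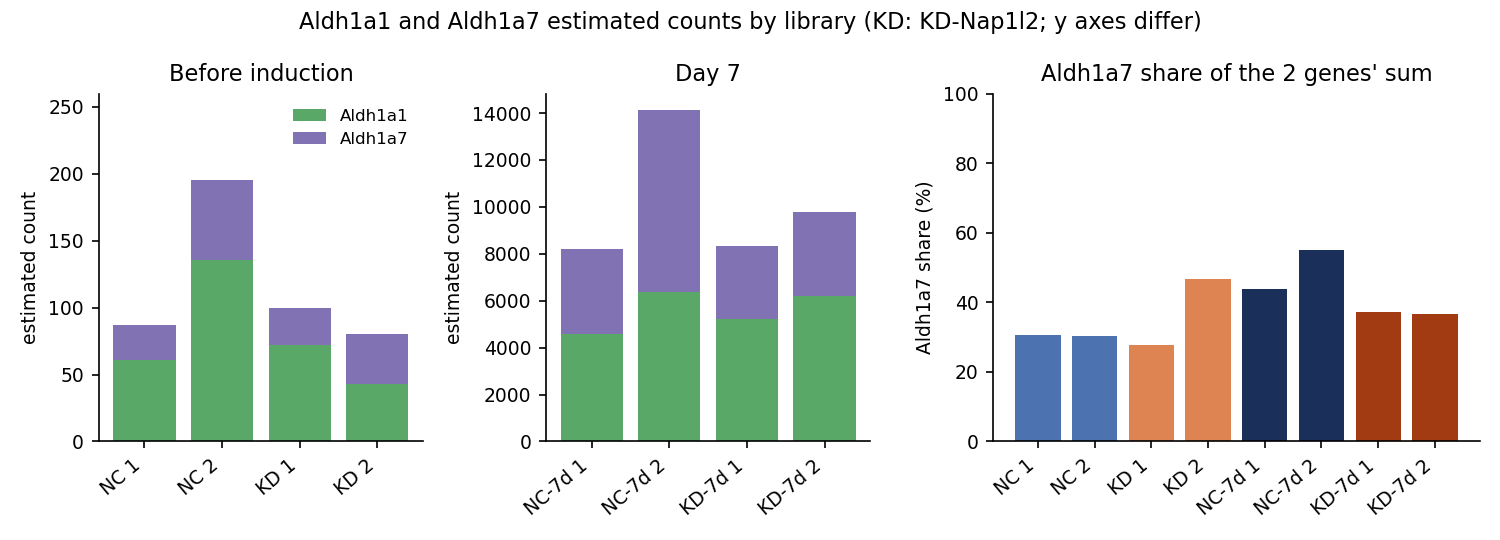
Estimated counts of *Aldh1a1* and *Aldh1a7* stacked by library (x) before induction and at day 7 (y, counts, with different scales), and the *Aldh1a7* share of their sum in percent. The sum stays at or below 195 before induction and reaches 8186 to 14129 at day 7, and NC-7d replicate 2 has the highest share at 55%.

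*Aldh1a3*, the third *Aldh1a* gene in the table, moved the other way. It had 17.73 and 19.63 normalised counts in the NC libraries and 22.51 and 62.44 in KD-Nap1l2, and 6.42 and 1.92 in NC-7d and 2.00 and 4.18 in KD-Nap1l2-7d. Every induced library was below every library taken before induction, at counts that were low throughout. Summed over both libraries, 39 counts in NC stood against 8 in NC-7d, a depth-scaled ratio of 4.6 with a 95% exact interval from counting of 2.12 to 11.4. In KD-Nap1l2 cells 83 counts stood against 6, a ratio of 13.7 (6.03 to 38.4). The fitted log2 fold changes were -2.16 ± 0.746 (SE) and -3.73 ± 0.743. The control value was -3.20 with NC-7d replicate 1 left out and -1.52 with NC-7d replicate 2 left out, and the other was -2.82 without KD-Nap1l2 replicate 2 and -4.33 with KD-Nap1l2-7d replicate 2 left out. Between KD-Nap1l2 and NC the log2 fold change was 1.18 ± 0.581, and 0.27 without KD-Nap1l2 replicate 2.

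*Stra6*, which takes up retinol from its plasma carrier, was low in all libraries. It had 18.71 and 12.15 normalised counts in the NC libraries, 4.89 and 6.24 in KD-Nap1l2, 1.07 and 3.84 in NC-7d, and 5.01 and 4.18 in KD-Nap1l2-7d. The NC libraries were above the other 6, which were all under 7 normalised counts. In control cells, 32 counts before induction stood against 5 after it, a ratio of 6.04 (95% exact interval from counting, 2.34 to 19.9), and the log2 fold change was -2.56 ± 0.637 (SE). With NC-7d replicate 2 left out the latter became -3.70, and with its partner left out -1.97. In KD-Nap1l2 cells the values before and after induction overlapped, with a log2 fold change of -0.27 ± 0.659. Between KD-Nap1l2 and NC it was -1.45 ± 0.561 before induction, and between KD-Nap1l2-7d and NC-7d it was 0.84 ± 0.751. The latter rested on which NC-7d library was kept, at 0.25 with replicate 1 left out and 1.98 with replicate 2 left out.

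The binding proteins gave little signal. *Crabp1* had 4 and 1 counts in the NC libraries, 2 and 1 in KD-Nap1l2, 0 and 0 in NC-7d, and 1 and 0 in KD-Nap1l2-7d. A count of 0 still allows up to 3 counts, which is 3.21 and 2.88 normalised counts in the NC-7d libraries, so no difference was detectable at this depth. *Crabp2*, which is known to deliver retinoic acid to its receptors, had 25.61 and 26.17 normalised counts in NC, 20.55 and 46.83 in KD-Nap1l2, 44.96 and 21.09 in NC-7d, and 38.1 and 40.73 in KD-Nap1l2-7d. The groups overlapped in all 4 comparisons, and the log2 fold changes lay between 0.23 and 0.37 with SE from 0.483 to 0.496. Without KD-Nap1l2 replicate 2, the log2 fold change of *Crabp2* was -0.33 between KD-Nap1l2 and NC and 0.94 with induction in KD-Nap1l2 cells. Without NC-7d replicate 1, it was -0.29 with induction in control cells.

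The receptors differed widely in level. *Rarg*, the receptor gene best known from cartilage and skin, had 4491 and 4721 normalised counts in NC, 4726 and 6469 in KD-Nap1l2, 4329 and 4458 in NC-7d, and 4161 and 4368 in KD-Nap1l2-7d. The highest value was that of KD-Nap1l2 replicate 2, and the other 7 libraries lay between 4161 and 4726. With induction the log2 fold change was -0.07 ± 0.163 (SE) in control cells and -0.39 ± 0.163 in KD-Nap1l2 cells, and the latter was -0.15 without KD-Nap1l2 replicate 2. Between KD-Nap1l2 and NC it was 0.28 ± 0.163, and 0.04 without the same library. Between the induced groups it was -0.04 ± 0.163.

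Reads of *Rarg* were divided among 4 transcripts in the deposited transcript table, and these shares were less even than the gene's total. The transcript NM_001042727.2 held from 39.6% to 52.0% of the gene's estimated count in the 8 libraries. NM_011244.4 held 32.7% and 36.8% in NC, 23.7% and 12.7% in KD-Nap1l2, 25.1% and 30.0% in NC-7d, and 26.5% and 29.9% in KD-Nap1l2-7d. XM_006520650.1 held 20.9% and 25.0% in KD-Nap1l2, above the 12.1% to 18.8% of the other 6 libraries, and XM_011245525.2 held 13.9% and 11.3% in KD-Nap1l2 against 4.85% to 8.79%. Both predicted transcripts were thus highest in the KD-Nap1l2 libraries, and NM_011244.4 was lowest there. Shares of 1 gene sum to 100%, overlapping transcripts share reads, and these shares were not tested.

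**Figure D3:**
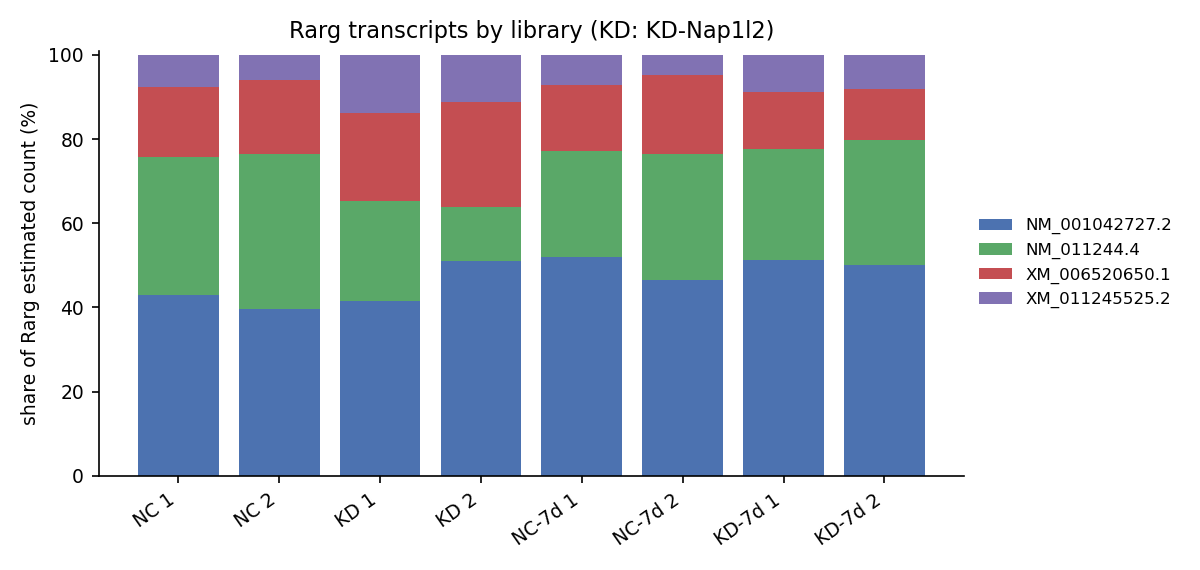
Share of the *Rarg* estimated count (y, percent) given to each of 4 transcripts in each library (x). NM_011244.4 ranges from 12.7% in KD-Nap1l2 replicate 2 to 36.8% in NC replicate 2.

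*Rarb*, a receptor gene that is itself a known target of retinoic acid and holds the repeat shown above, had 26.59 and 9.35 normalised counts in NC, 10.77 and 9.37 in KD-Nap1l2, 6.42 and 12.46 in NC-7d, and 7.02 and 9.40 in KD-Nap1l2-7d. NC replicate 1 was above the other 7 libraries, and the groups overlapped in all 4 comparisons. The log2 fold change with induction was -0.90 ± 0.601 (SE) in control cells, and 0.03 without NC replicate 1, and -0.29 ± 0.655 in KD-Nap1l2 cells. Its reads were assigned to different transcripts in different libraries at these counts, so no transcript value is given.

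Across all genes fitted, a gene was called when its p from the quasi-likelihood test of edgeR, adjusted by Benjamini-Hochberg, was under 0.05. Induction in control cells called 8.21% of the 13470 genes, 4.83% higher and 3.38% lower. Of the 7 members fitted, 3 were past the threshold, *Aldh1a1* and *Aldh1a7* higher and *Stra6* lower. Induction in KD-Nap1l2 cells called 14.2% of genes, 6.84% higher and 7.36% lower, and again 3 members were past it, *Aldh1a1* and *Aldh1a7* higher and *Aldh1a3* lower. *Stra6* was no longer past the threshold when any 1 of the 8 libraries was left out, nor *Aldh1a3* without KD-Nap1l2 replicate 2 or either KD-Nap1l2-7d library. As the members were chosen with such values known, nothing is read from these counts.

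Between KD-Nap1l2 and NC, 0.0817% of genes were called, 0.0223% higher and 0.0594% lower, and 0 of the 7 members. For knockdown against control after induction, and for the difference of the knockdown contrasts between day 7 and day 0, 0 genes were called by edgeR, with 1057 and 948 genes at an unadjusted p under 0.05, while DESeq2 called 78 and 100 genes. No member was among the edgeR calls. The 2 libraries of a group did not overlap those of the other for 3 members before induction, against 43.2% of all genes, and for 2 members after it, against 42.1%. With induction, 5 members in control cells and 4 in KD-Nap1l2 cells did not overlap, against 57.8% and 61.4% of all genes. An exact test of 2 libraries against 2 cannot go below p = 0.333. The median log2 fold change of the 7 members was -0.32 before induction and -0.04 after it for the knockdown, and -0.07 and -0.27 for induction in control and KD-Nap1l2 cells. The medians over all genes fitted lay between -0.00705 and 0.0106.

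**Figure D4:**
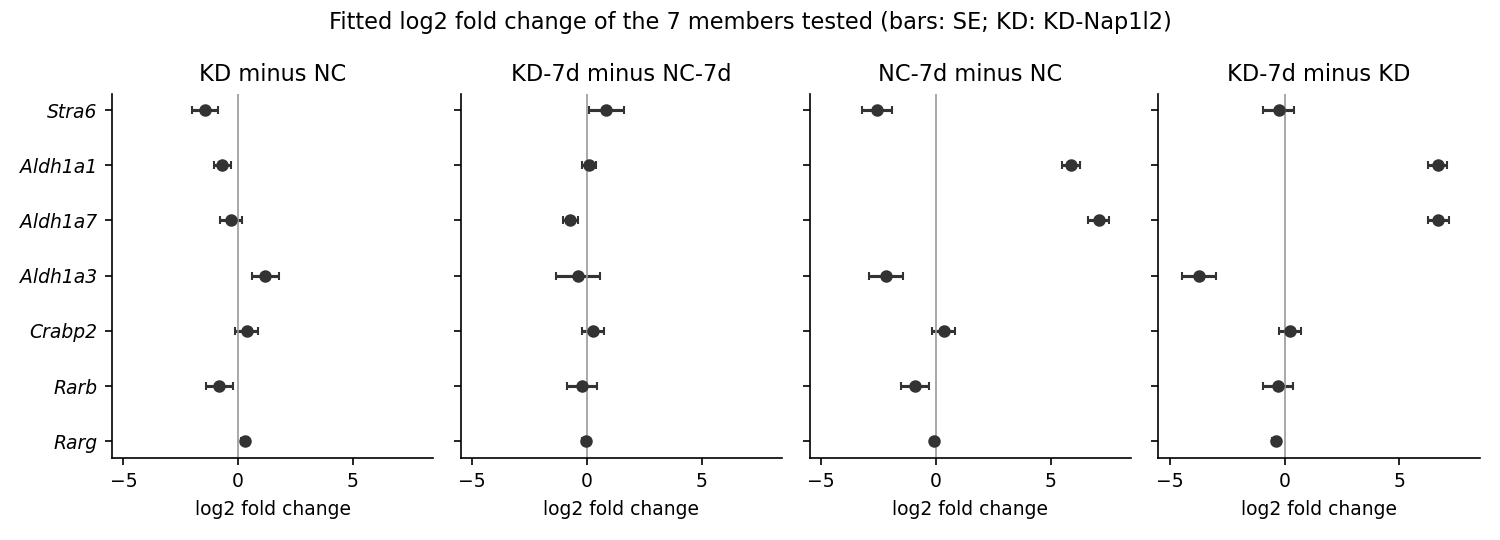
Fitted log2 fold change (x) of the 7 members (y) in the 4 comparisons, with bars for the SE; KD stands for KD-Nap1l2. *Aldh1a1* and *Aldh1a7* lie between 5.88 and 7.10 in both induction comparisons, and no member is beyond 1.5 in size in either knockdown comparison.

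The other genes of retinoid metabolism and signalling were taken from lists of 75 genes, of which 70 were in the table and 51 were fitted. None of them is a member, and each was tested in the same fit. These lists, too, were drawn up with earlier results of these data known, so nothing is read from their numbers of calls. With induction in control cells, 7 of the 51 passed (13.7%, against 8.21% of all genes), 4 higher and 3 lower, and the median log2 fold change was 0.07. In KD-Nap1l2 cells, 7 passed (13.7%, against 14.2%), 5 higher and 2 lower, with a median of 0.06. *Tgm2*, *Nrip1*, *Meis2* and *Rpe65* passed in both, and 10 genes passed in either. By edgeR, 0 of the 51 passed between KD-Nap1l2 and NC (9 at an unadjusted p under 0.05), 0 of them for the same contrast after induction (4), and 0 for the difference of these (3). DESeq2 called 1 of them, *Adh1*, in the comparison after induction.

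Calls of single genes rested on few libraries. Without NC replicate 1, 0 of the 51 passed in control cells, and without KD-Nap1l2-7d replicate 1 or replicate 2, only *Tgm2* passed in KD-Nap1l2 cells. *Gdnf*, *Meis2*, *Nrip1*, *Adh7* and *Cyp26a1* no longer passed in KD-Nap1l2 cells without KD-Nap1l2 replicate 2. In these fits the single library left in a group is assumed to vary like the other groups.

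Among genes for uptake, binding and storage of retinol, 4 of the 8 in the table were fitted. *Rpe65*, the isomerase of the visual cycle, fell in both comparisons. It had 57.13 and 16.83 normalised counts in the NC libraries and 0 and 2.876 in NC-7d, and 76 counts against 3 gave a ratio of 23.9 (95% exact interval from counting, 7.88 to 119; adjusted p = 0.0409). In KD-Nap1l2 cells it had 56.76 and 21.85 before and 3.008 and 2.089 after induction, a ratio of 15.6 (6.43 to 49.5; adjusted p = 0.0368). *Stra6l*, a relative of *Stra6* with a role in retinol uptake, was at 10.83 to 23.55 normalised counts and passed in none of the comparisons.

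Of the dehydrogenases and reductases that interconvert retinol and retinal, 15 of 22 in the table were fitted. In control cells *Dhrs3*, which reduces retinal to retinol, rose from 471.8 and 574.9 to 1772 and 1121 normalised counts, with a log2 fold change of 1.47 ± 0.341 (SE; adjusted p = 0.0392). In KD-Nap1l2 cells it went from 587.2 and 1204 to 2054 and 1836 with 1.12 ± 0.335, which missed the threshold (adjusted p = 0.0624). Without KD-Nap1l2 replicate 2 it was 1.73 and passed (adjusted p = 0.0201), and over all alternatives the edgeR, limma and DESeq2 adjusted p ran from 0.00484 to 0.246. *Rdh5*, known as an 11-cis-retinol dehydrogenase, fell in control cells from 244.3 and 202.9 to 76.00 and 99.71 normalised counts, with a log2 fold change of -1.34 ± 0.227 (adjusted p = 0.0133). In KD-Nap1l2 cells its log2 fold change was -0.66 ± 0.228 (adjusted p = 0.0933). *Adh7*, an alcohol dehydrogenase that oxidises retinol, fell in KD-Nap1l2 cells from 1409 and 2065 to 942.4 and 1162 normalised counts, with a log2 fold change of -0.72 ± 0.191 (adjusted p = 0.0433), against -0.24 ± 0.190 in control cells (adjusted p = 0.477). Without KD-Nap1l2 replicate 2 the former was -0.42 and did not pass (adjusted p = 0.14), in a range over all alternatives from 0.00846 to 0.256. None of these differences between control and knockdown cells was itself past the threshold.

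*Adh1*, another alcohol dehydrogenase of this list, is named after its values were seen. It had 378.9 and 310.6 normalised counts in NC-7d and 73.18 and 119.0 in KD-Nap1l2-7d, without overlap. The log2 fold change was -1.84 ± 0.351 (SE). The edgeR adjusted p was 0.443, while DESeq2 gave 0.00045, the smallest over all alternatives, which ran up to 1. Before induction *Adh1* had 443.2 and 344.9 in NC and 247.6 and 130.1 in KD-Nap1l2, and the log2 fold change was -1.06 ± 0.335 (adjusted p = 0.231).

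Retinoic acid clearance was measured by 3 fitted genes of 4. *Cyp26a1*, the inducible retinoic acid hydroxylase whose upstream repeat is shown above, had 0 and 1.041 normalised counts in KD-Nap1l2 and 8.020 and 8.354 in KD-Nap1l2-7d. This was 1 count against 16, a ratio of 16.2 with an interval from 2.51 to 678 (adjusted p = 0.0442), with adjusted p from 0.0263 to 0.176 under the alternatives. In control cells it had 6.895 and 10.28 before and 13.92 and 6.712 after induction, with overlap. Before induction, 18 counts in NC stood against 1 in KD-Nap1l2, a ratio of 17.0 with an interval from 2.69 to 710. The log2 fold change between KD-Nap1l2 and NC was -3.79 ± 0.979 and did not pass (adjusted p = 0.164). *Cyp26b1*, the more abundant hydroxylase, had 427.5 and 330.9 in NC and 162.7 and 253.1 in NC-7d, where its log2 fold change was -0.86 ± 0.238 (adjusted p = 0.0671), and -1.22 with NC-7d replicate 2 left out (adjusted p = 0.0299). *Cyp2s1* was at 6.015 to 23.37 normalised counts and its groups overlapped in all 4 comparisons.

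Of the other receptors and the carrier, 5 of 6 were fitted and none passed in the fit of all 8 libraries. *Rara*, the third retinoic acid receptor, lay between 1407 and 2431 normalised counts, with KD-Nap1l2 replicate 2 the highest, as for *Rarg*. *Rxra*, a dimer partner of these receptors, had 2087 and 1847 normalised counts in NC and 2887 and 2893 in NC-7d. This is 0.56 ± 0.179 on the log2 scale (SE; adjusted p = 0.104), and 0.47 to 0.64 over the alternatives. It passed in 2 of 16 alternatives, each leaving out a KD-Nap1l2 library, which is not part of this comparison. In KD-Nap1l2 cells its log2 fold change was 0.47 ± 0.179 (adjusted p = 0.121). Over the alternatives that value ran from 0.22 to 0.76, the latter without KD-Nap1l2 replicate 1, and 1 of 16 passed.

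All 10 receptor coregulators were fitted. *Nrip1*, a corepressor that binds receptors in the presence of ligand, rose in both comparisons. It went from 346.7 and 408.5 to 632.6 and 743.1 normalised counts in control cells, with a log2 fold change of 0.87 ± 0.210 (SE; adjusted p = 0.045). In KD-Nap1l2 cells it went from 394.4 and 303.9 to 733.8 and 525.3, with 0.85 ± 0.210 (adjusted p = 0.0355). The corepressor *Ncor1*, an abundant gene of the list, passed in no comparison, and its log2 fold changes lay between -0.13 and 0.07.

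Of the genes known as retinoic acid targets, 14 of 20 in the table were fitted, and 3 passed in each induction comparison. This was 21.4%, against 8.21% of all genes in control cells and 14.2% in KD-Nap1l2 cells. The list as a whole had no common direction. In control cells 8 were above 0 and 6 below, with a median log2 fold change of 0.01. In KD-Nap1l2 cells 6 were above 0 and 8 below, with a median of -0.14. *Tgm2*, tissue transglutaminase, rose from 417.6 and 468.3 to 1332 and 896.5 normalised counts in control cells, with a log2 fold change of 1.33 ± 0.196 (SE; adjusted p = 0.0085). In KD-Nap1l2 cells it rose from 378.7 and 442.3 to 1632 and 1527, with 1.94 ± 0.199 (adjusted p = 0.00167). *Meis2*, a homeodomain factor, rose by 0.48 ± 0.118 on the log2 scale in control cells (adjusted p = 0.047) and by 0.56 ± 0.119 in KD-Nap1l2 cells (adjusted p = 0.0223). Among the retinoid genes that passed in either comparison, *Tgm2*, *Meis2*, *Nrip1* and *Dhrs3* rose without overlap of the libraries in both. *Rpe65*, *Rdh5*, *Gata4* and *Adh7* fell without overlap in both. Of all genes, 57.8% separated without overlap in control cells and 61.4% in KD-Nap1l2 cells.

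Other targets passed in 1 of the comparisons. *Gata4*, a transcription factor, fell in control cells from 723.0 and 718.9 to 454.9 and 513.0 normalised counts, with a log2 fold change of -0.58 ± 0.135 (adjusted p = 0.0407), and had -0.34 ± 0.135 in KD-Nap1l2 cells (adjusted p = 0.133). *Gdnf*, a neurotrophic factor, rose in KD-Nap1l2 cells from 61.66 and 33.30 to 132.3 and 157.7, with 1.60 ± 0.333 (adjusted p = 0.0204), and had 0.19 ± 0.317 in control cells (adjusted p = 0.756). The most abundant targets, *Egr1* and *Rai14*, passed in none, and *Egr1* differed between replicates as widely as 1902 and 14850 normalised counts in NC-7d.

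**Figure D5:**
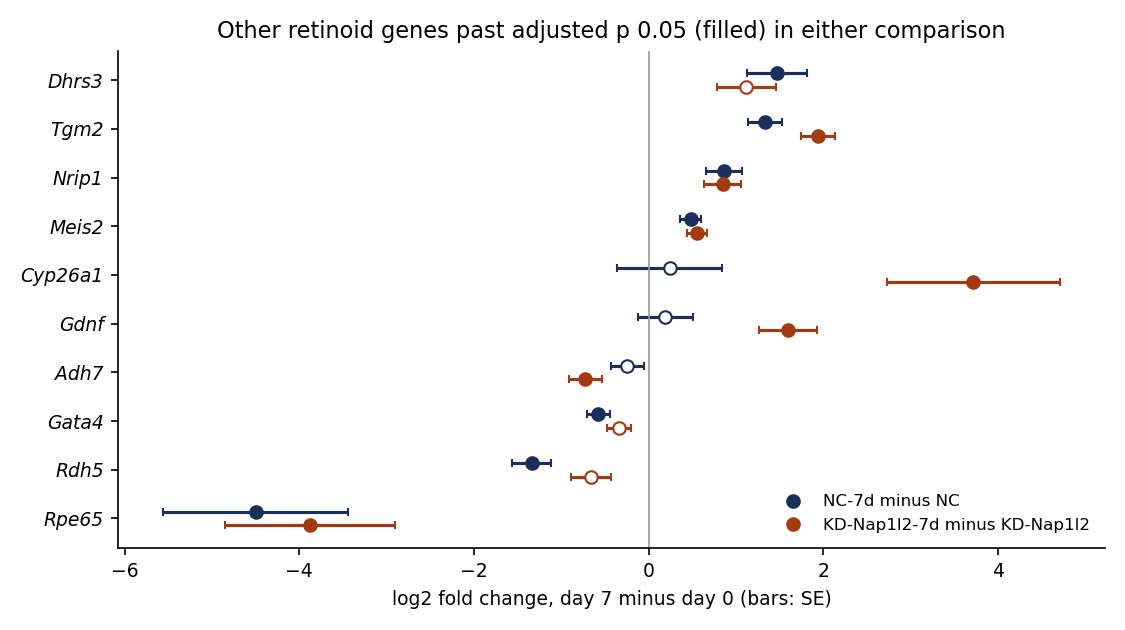
Log2 fold change with induction (x) of the 10 other retinoid genes (y) that passed in control or KD-Nap1l2 cells, with bars for the SE and filled points for an adjusted p under 0.05. *Tgm2*, *Nrip1*, *Meis2* and *Rpe65* are filled in both, and all 10 lie on the same side of 0 in both comparisons.

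Aldehyde dehydrogenases outside the *Aldh1a* group served as a comparison for the enzyme family. Of 14 such genes in the table, 13 were fitted. By edgeR, 0 passed in control cells (3 at an unadjusted p under 0.05), against 8.21% of all genes. In KD-Nap1l2 cells 0 passed (2), against 14.2% of all genes. With only 13 genes fitted, nothing is read from these numbers of calls. The median log2 fold change of the 13 genes was 0.19 in control cells and 0.26 in KD-Nap1l2 cells.

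Markers of several cell types also differed between libraries taken before and after induction, some higher and some lower. The summed level of 8 adipocyte marker genes was 32.5 to 60.8 FPKM in the 4 libraries before induction and 175 to 229 FPKM in the 4 induced libraries. Of the 5 that were fitted, *Fabp4* and *Pparg* rose in both comparisons, and *Cebpa* and *Lpl* fell in KD-Nap1l2 cells, while *Plin1*, *Cidec* and *Lep* were under 10 normalised counts in every library. The 8 osteoblast marker genes summed to 1090 to 1300 FPKM before and 1490 to 3700 FPKM after induction. Among these 8, *Spp1* had the most normalised counts in every library, from 28050 to 97020, so the sum need not show the others. Of the 5 fitted, 4 had a log2 fold change below 0 in control cells and 0 passed (3 at an unadjusted p under 0.05). In KD-Nap1l2 cells *Spp1*, which encodes osteopontin, rose from 31380 and 28720 to 81650 and 78560 normalised counts, and *Runx2*, the osteoblast transcription factor, fell from 1323 and 1669 to 976.4 and 1023. The 15 mesenchymal stromal marker genes summed to 4270 to 6330 FPKM before and 3010 to 4450 FPKM after induction. Of the 14 fitted, *Col3a1* and *Thy1* fell in control and KD-Nap1l2 cells, and *Col1a1*, *Col1a2*, *Prrx1* and *Twist1* also fell in the latter, where none rose. Of the chondrocyte list, 5 genes in the table summed to 77.2 to 122 FPKM before and 64.6 to 84.3 FPKM after induction, and *Col2a1* and *Sox9* fell in KD-Nap1l2 cells. The 5 smooth muscle marker genes summed to 699 to 1560 FPKM before and 272 to 649 FPKM after induction, and *Myh11* fell in control cells and *Acta2* in KD-Nap1l2 cells. The endothelial list reached at most 1.6 FPKM, the epithelial list 2.76 FPKM and the leukocyte list 9.19 FPKM in any library. The part of these cell types in the results above was not tested.

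The genes with the most similar pattern were found by Pearson's correlation of log2 CPM across the 8 libraries, over 11280 genes with a mean of at least 50 normalised counts. For *Aldh1a1* they were *Prkx* (r = 0.998), *Lpgat1* (0.997) and *Fkbp5* (0.995). *Prkx* went from means of 382.1 and 368.4 normalised counts in NC and KD-Nap1l2 to 633.0 and 657.0 in the induced groups, so a like pattern came with a far smaller change. *Fkbp5* went from 240.9 and 178.9 to 7722 and 7199. For *Aldh1a7* they included *Ctla2a* (0.994) and *Slc10a6* (0.993), and *Ctla2a* had means of 209.4, 195.2, 13320 and 9380 in NC, KD-Nap1l2, NC-7d and KD-Nap1l2-7d. For *Rarg* they were *Plxna3* (0.983), *Me2* (0.983) and *Trip10* (0.982). Over the 7 libraries without KD-Nap1l2 replicate 2, a choice made after seeing the data, these became 0.875, 0.838 and 0.792, while those named for *Aldh1a1* and *Aldh1a7* stayed at or above 0.992. *Me2* had its highest mean, 1676 normalised counts, in KD-Nap1l2 against 690.4 to 786.2 in the other groups. These correlations share the same 8 libraries and, for the first 2 genes, rest on the gap between induced and uninduced libraries, and for *Rarg* in part on KD-Nap1l2 replicate 2. They are given as descriptions. Only these 3 members reached the mean of 50 normalised counts that the search required.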

How the data were processed

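C3H10T1/2 cells were profiled by RNA-seq in 4 groups of 2 libraries, assigned by the labels of the series. The authors deposited estimated counts per gene and per transcript, without normalization, and 41.1% of genes have at least 1 fractional value. The authors also deposited FPKM values, scaled for gene length and library size. Libraries were built and sequenced by Beijing Genomics Institute. The submitters' processing notes name BWA, Bowtie2, RSEM and GRCm38.p6, with no versions. Deposited columns of the authors' own comparisons were not used.

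Estimated counts were rounded, scaled by TMM and filtered with filterByExpr, which kept 13470 of 18605 genes. All 8 libraries were fitted with edgeR 4.0.16 in R 4.3.3, as 1 factor of 4 groups, and tested by the quasi-likelihood F test, with Benjamini-Hochberg adjustment over all genes. A normalised count is the rounded count divided by the effective library size and multiplied by the mean effective size of 18249592. The SE was taken as |log2 fold change| / sqrt(F). Intervals and limits for counts of 0 cover counting error only. The alternatives were DESeq2 1.42.0, RLE factors, other filters, only the libraries compared, a replicate block, limma 3.58.1 on log2(FPKM + 1) and log2(FPKM + 0.1), each library left out, transcript counts summed per gene, and *Aldh1a1* and *Aldh1a7* summed. Correlations without KD-Nap1l2 replicate 2 were added after seeing the data.

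The members and lists were chosen with earlier results of these data known. The other retinoid genes named are those called in any comparison and the 2 most abundant of each list, the genes most alike a member are the 3 with the highest correlation for each member with a mean of at least 50 normalised counts, and *Adh1*, *Bco1*, *Rdh10* and the marker genes are named beside this rule. Of the genes the rule names, 2 are not reported here. Tested on simulated data for KD-Nap1l2 against NC with 13470 genes, edgeR called 48 of 100 genes given a 2-fold and 90 of 100 given a 4-fold difference, and 7 unchanged genes. DESeq2 called 66 and 92 of these, and 30 unchanged genes. In a comparison with no simulated difference, edgeR called 4 genes and DESeq2 29. Upstream sequences are RefSeq's and coding sequences GENCODE's, both for GRCm38.p6, aligned with biopython 1.88 in Python 3.11.15. Figures were drawn with matplotlib 3.10.9.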

Additional observations from a re-analysis of the deposited data

Results flagged for a closer look

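Of 58 members and retinoid genes looked at, 3 had effects of opposite direction in both libraries of 1 setting against both of the other, and in none was the difference itself past the threshold. In single comparisons, 42.1% to 61.4% of all genes separated without overlap. The share of all genes meeting the flagging rule was not computed, so nothing is read from this number. For *Stra6*, the log2 fold change between knockdown and control was -1.45 before induction and 0.84 after it, and the difference of 2.29 had an edgeR adjusted p of 0.698. The value after induction was 0.25 with NC-7d replicate 1 left out and 1.98 with NC-7d replicate 2 left out. For *Gdnf*, it was -1.16 before and 0.25 after induction, with a difference of 1.41 and an adjusted p of 0.624. For *Rdh10*, which oxidises retinol to retinal, the log2 fold change with induction was -0.55 in control cells and 0.40 in KD-Nap1l2 cells, with a difference of 0.95 and an adjusted p of 0.702. Groups of 2 libraries were not searched for outlying samples.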

How the results depend on the processing

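Of 578 member values recomputed under the alternatives, 512 moved by less than the spread between replicates, 66 moved further, and 0 that had passed a threshold changed sign. Counts of calls depended more on the setting. For KD-Nap1l2 against NC, the 11 genes called became 453 with DESeq2, 160 with no filter, 33 and 18 with limma on log2(FPKM + 1) and log2(FPKM + 0.1), 4 with at least 10 counts in every library, 4 with the replicate block and 0 with only the libraries compared, and 0 (without KD-Nap1l2 replicate 2 or NC replicate 2) to 562 (without KD-Nap1l2 replicate 1) leaving out 1 library. After induction, 0 became 78 with DESeq2 and 0 to 1 leaving out 1 library, and for the difference of the knockdown contrasts 0 became 100 with DESeq2, 1 with no filter and 0 to 19. Induction called 1106 genes in control cells, 122 (without NC replicate 1) to 1490 leaving out 1 library, and 1912 in KD-Nap1l2 cells, 305 to 2218. Of the retinoid genes, 7 in control cells became 11 with DESeq2, 3 with limma on log2(FPKM + 1), 4 with the replicate block and 0 to 11 leaving out 1 library. In KD-Nap1l2 cells 7 became 4 with only the libraries compared and 1 to 9. The 0 between KD-Nap1l2 and NC became 0 to 4, with 4 without KD-Nap1l2 replicate 1, and the 0 after induction became 1 with DESeq2. The cause of these changes was not tested. Replicate numbers showed no strong shared difference, as the replicate differences of any 2 groups correlated between -0.136 and 0.124 over 11280 genes. Whether replicates of the same number were handled as matched sets cannot be told from this. With 2 libraries per group and under 30 normalised counts in most libraries for *Stra6*, *Rarb* and *Aldh1a3*, depth limits what can be said of them.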
